A study of Canis lupus familiaris with 15 samples.

Results

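The genes S100A8, CAMP, MMP9 and SERPINA1 encode proteins of neutrophil granules and cytosol, a granule protease and the main blood inhibitor of a neutrophil protease. They were followed across 15 canine samples, 1 array each, by taking every probe whose RefSeq identifier belongs to one of them. This gave 8 of 43603 probes and 4 of the 1357 genes that carry a symbol. All samples are from 5 dogs that had lymphoma, and 9 of the 15 are from a dog named Rosco. The controls were 2 skin biopsies, from MalcolmX and Rosco. Biopsies of MalcolmX, Jake, Rosco and Dog Y are labelled as drug-resistant tumours (4 samples), although those of Rosco and Dog Y are also labelled as untreated, and the biopsy of Thai is labelled as drug-sensitive (1 sample). From MalcolmX there is 1 aspirate taken after metformin, a drug used against type 2 diabetes that reduces the release of glucose from the liver. Rosco was aspirated once when chemotherapy had failed and metformin had not begun, once in remission on metformin, and 3 times at relapse after metformin, where the titles say no remission. A further aspirate of Rosco carries the label of a second resistant tumour, and 1 sample of its tumour was obtained post mortem. Every dog was a patient with its own treatment, and no group was replicated within a dog except the relapse aspirates. The labels used here give no ages. Values below are log2 signals from which the 75th percentile of that array was subtracted, so 0 is a bright probe, 1 unit is a 2-fold difference, and levels of different genes are not comparable.

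Neutrophils are short-lived blood cells that store antimicrobial peptides, proteases and metal-binding proteins and release them at sites of infection or tissue damage. S100A8 encodes a subunit of calprotectin, a calcium-binding protein that fills the neutrophil cytosol and withholds metals from microbes, and that monocytes and stressed keratinocytes also make. CAMP encodes the precursor of cathelicidin, an antimicrobial peptide, and is made during neutrophil development and stored in granules. MMP9 encodes a gelatinase that cuts matrix proteins and is stored in late granules, and macrophages and tumour cells can make it too. SERPINA1 encodes alpha-1 antitrypsin, which blocks neutrophil elastase, and comes mainly from the liver but also from myeloid and some epithelial cells. It is therefore a protease inhibitor and neither a granule marker nor a protease.

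Samples labelled as lymphoma tumours differed in genes of cell types. Of 8 B cell genes listed only 1 carried a symbol, so a low level of it does not show that a sample lacked lymphoma. The B cell gene MS4A1, which encodes CD20, ranged from 1.78 to 3.53 in 9 samples: the MalcolmX, Jake, Dog Y and Thai biopsies, the MalcolmX aspirate, the 3 relapse aspirates and the post-mortem sample. It was not well above background in the Rosco biopsy (−7.16), the second resistant aspirate (−6.73) or the Rosco skin (−8.04), and MalcolmX skin had 0.84. In the same Rosco biopsy and second aspirate the gland gene CA6 lay at 8.59 and 8.99. The failed-chemotherapy and remission aspirates had MS4A1 at 0.40 and 0.38, with the T cell gene CD8A at 3.21 and 2.89 against at most −1.53 elsewhere. In bulk tissue a change in the number of cells of a type and a change in RNA per cell cannot be told apart, and this holds for every result below. Neutrophil content itself could be checked on few genes. Of 24 granule genes listed 7 carried a symbol, and of 28 genes of the neutrophil surface and oxidase 11 did. CXCR2, the chemokine receptor that draws neutrophils into tissue, was well above background on 9 of 15 arrays, with its highest level of −3.79 in the remission aspirate. LTF, the granule protein lactoferrin, which gland epithelium also secretes, was highest at 3.94 in the second resistant aspirate and 3.71 in the Rosco biopsy. ELANE, neutrophil elastase itself, had a narrow range from −5.58 to −2.82. With so few defining genes named, the neutrophil content of the samples was not established, and the 4 genes are described one by one.

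S100A8 was measured well above background on all 15 arrays by its 1 probe, A_11_P0000033530. It was highest in the remission aspirate of Rosco at 4.32, followed by relapse aspirate 2 at 2.30 and the failed-chemotherapy aspirate at 2.24. The Dog Y biopsy had 1.95, the Thai biopsy 1.76, and the skin samples of Rosco and MalcolmX 1.22 and 0.97. These 7 arrays include tumour and skin alike. The MalcolmX biopsy lay at 0.89, relapse aspirate 1 at 0.70, the second resistant aspirate at 0.10 and the Rosco biopsy at 0.04. At the low end were relapse aspirate 3 at −0.82, the post-mortem sample at −1.44, the Jake biopsy at −2.07 and the MalcolmX aspirate after metformin at −2.37. The SD over the 3 relapse aspirates of Rosco was 1.56. Of neighbours in this order only the remission aspirate stood farther from the next array than that SD.

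CAMP, also read by 1 probe (A_11_P0000020065) and well above background on all 15 arrays, split the samples differently. It was highest in the remission aspirate at 1.37, the failed-chemotherapy aspirate at 0.74 and the MalcolmX biopsy at 0.48. Relapse aspirate 2 had −0.85, the Thai biopsy −1.08 and relapse aspirate 1 −1.88, and the Dog Y biopsy, relapse aspirate 3 and the post-mortem sample −2.77, −2.82 and −2.93. The lowest arrays were the second resistant aspirate at −3.09, the Rosco biopsy at −3.38, the Jake biopsy at −3.42, the MalcolmX skin at −3.54, the MalcolmX aspirate after metformin at −3.73 and the Rosco skin at −4.28. The largest step between neighbours, from the MalcolmX biopsy to relapse aspirate 2, exceeded the relapse SD of 0.98. The others did not. The skin samples had S100A8 in the middle of its range and CAMP at its bottom.

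MMP9 was highest in the Jake biopsy at 2.03, far above the remission aspirate at −0.68, the failed-chemotherapy aspirate at −0.99 and the MalcolmX biopsy at −1.16. The Rosco skin had −2.07, the post-mortem sample −2.76, relapse aspirates 1, 3 and 2 −3.11, −3.34 and −3.38, the Thai biopsy −3.59 and the MalcolmX skin −3.72. The MalcolmX aspirate after metformin had −4.91 and the Dog Y biopsy −5.02. On the second resistant aspirate (−5.86) and the Rosco biopsy (−5.98) MMP9 was not well above background. The relapse aspirates agreed closely (SD 0.15), while the 4 resistant biopsies held both the highest and the lowest array of the gene. MMP9 had 4 probes. The probe used, A_11_P0000019937, and A_11_P053796 followed each other on every array with a gap of at most 0.40 and r = 0.997 over 15 arrays. The other 2, A_11_P053471 and A_11_P053481, were well above background on the Jake biopsy only (−4.60 and −5.57). The Jake biopsy was thus the highest array for all 4 probes.

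SERPINA1 was highest in the second resistant aspirate at 3.54 and the Rosco biopsy at 3.30, the same samples that had high CA6 and MS4A1 not well above background. The Rosco skin had 1.37, the remission aspirate 0.67, the Dog Y biopsy −0.95, the Thai biopsy −0.98, relapse aspirate 2 −1.70 and the failed-chemotherapy aspirate −1.96. Relapse aspirates 1 and 3 had −3.12 and −3.17, the MalcolmX skin −3.27, the post-mortem sample −3.38, the MalcolmX biopsy −4.05 and the Jake biopsy −4.40. The MalcolmX aspirate after metformin was lowest at −6.71, where the probe used was not well above background. The second probe, A_11_P194363, was above background on all 15 arrays and ran parallel to it (r = 0.978), with its largest gap of 1.52 in the Dog Y biopsy. It lay above the probe used in the MalcolmX aspirate, at −5.23, and just above it in the Jake biopsy, at −4.37. Other secreted protease inhibitors shared the 2 high arrays. SLPI, an inhibitor of neutrophil elastase at mucosal surfaces, lay at 3.87 in the Rosco biopsy and 3.79 in the second aspirate against a median of −3.56. WFDC2, a related inhibitor of glandular epithelium, lay at 7.04 and 6.95 against a median of −6.52.

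**Figure D1:**
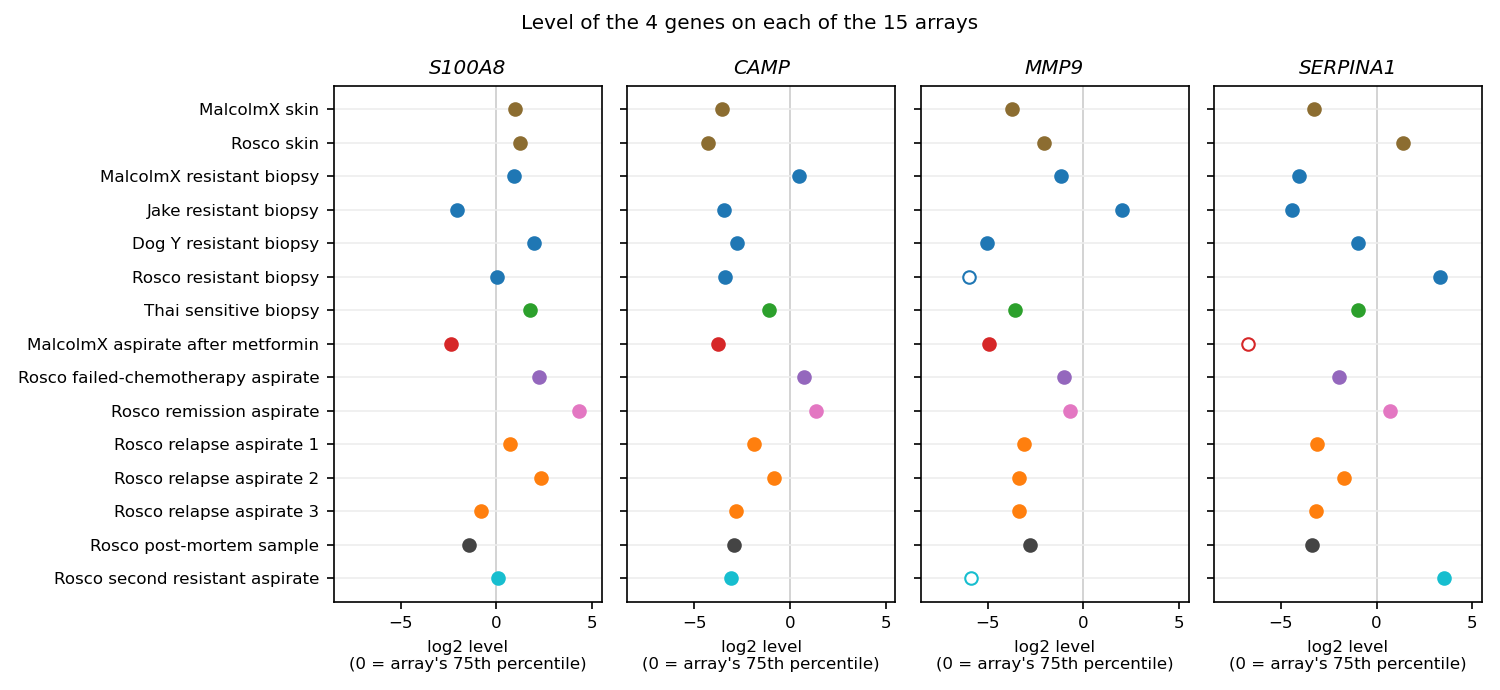
Log2 level of each gene (x axis, 0 is the array's 75th percentile) on the 15 arrays (rows, coloured by group). Open circles are not well above background. The remission aspirate is the highest array for S100A8 (4.32) and CAMP (1.37), the Jake biopsy for MMP9 (2.03) and the second resistant aspirate for SERPINA1 (3.54).

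**Figure D2:**
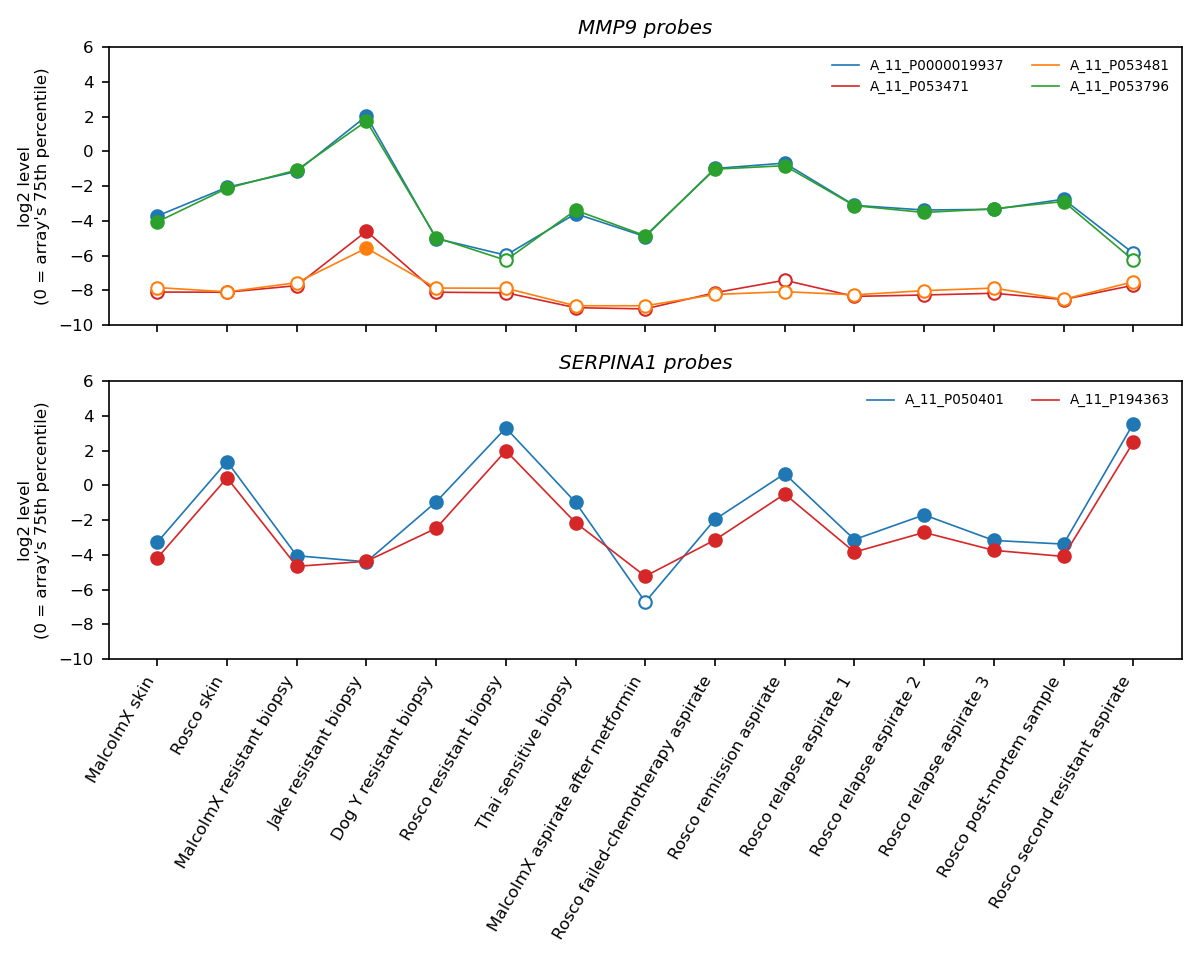
Log2 level (y axis, 0 is the array's 75th percentile) of the 4 MMP9 probes and the 2 SERPINA1 probes on each array (x axis). Open circles are not well above background. A pair of MMP9 probes runs together, and the other pair is well above background on the Jake biopsy only. The SERPINA1 probes change order in the MalcolmX aspirate (−6.71 and −5.23) and, by a small gap, in the Jake biopsy (−4.40 and −4.37).

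The first question was how the 4 genes stood before and after metformin in the 2 dogs sampled on both sides. In MalcolmX all 4 were lower after the drug than in the biopsy before it. In Rosco all 4 were higher in the remission aspirate than in the aspirate taken after failed chemotherapy. There was 1 array on each side, so neither difference has a replicate check and no test was made. The tissue sampling also differed, since the MalcolmX pair set a needle aspirate against a biopsy, while both Rosco samples were aspirates. In MalcolmX, drug and sampling method cannot be told apart.

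In MalcolmX, CAMP went from 0.48 to −3.73, 18.5-fold lower, and MMP9 from −1.16 to −4.91, 13.4-fold lower. S100A8 went from 0.89 to −2.37, 9.59-fold lower. The second good MMP9 probe gave 13.8-fold. SERPINA1 went from −4.05 to −6.71, 6.29-fold lower, but the −6.71 was not well above background. Its second probe, well above background on both arrays, went from −4.66 to −5.23, only 1.49-fold lower. Of the 3 members well above background on both arrays, 3 were at least 2-fold lower, beside 7.6% of the 23183 targets measured on both, with 1.47% at least 2-fold higher. The median difference of all targets was 0.00, and both arrays were on the same slide.

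In Rosco, SERPINA1 went from −1.96 to 0.67, 6.22-fold higher, and its second probe from −3.14 to −0.50, also 6.22-fold. S100A8 went from 2.24 to 4.32, 4.22-fold higher. CAMP went from 0.74 to 1.37, 1.55-fold higher, and MMP9 from −0.99 to −0.68, 1.25-fold higher. Of the 4 members 2 were thus at least 2-fold higher, beside 3.05% of 24808 targets, with 1.48% at least 2-fold lower. The median difference of all targets was 0.03. Over the 3 relapse aspirates of the same dog the SD was 0.98 for CAMP, larger than its difference in the pair. For MMP9 it was 0.15, against a difference of 0.32 by the probe used and 0.20 (1.15-fold) by the second good probe. With 1 array on each side this does not show that MMP9 differed. The failed-chemotherapy array was on slide 3 and the remission array on slide 4, so slide and time point cannot be told apart in this pair.

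**Figure D3:**
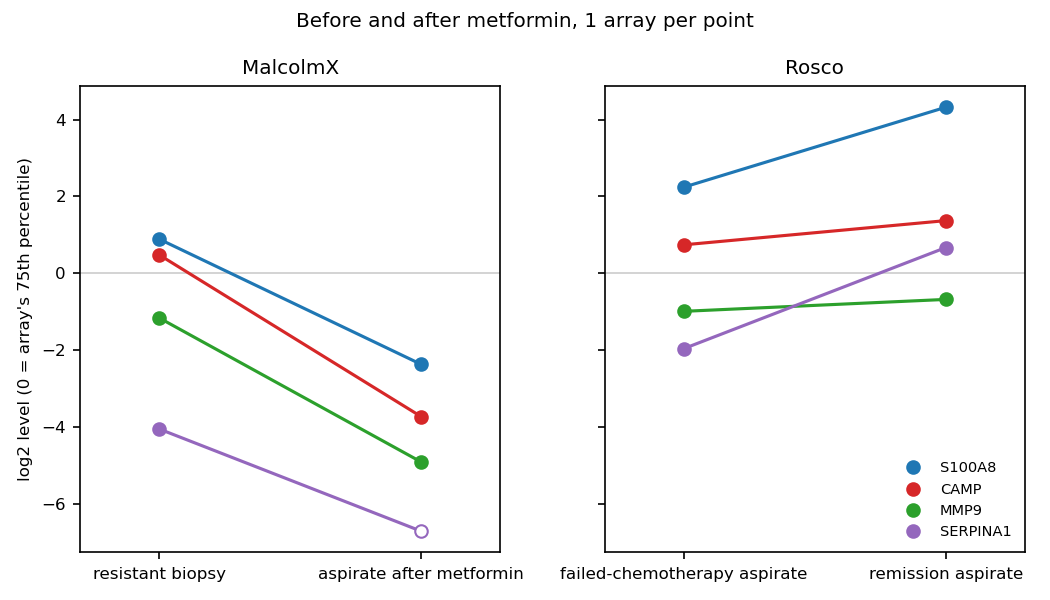
Log2 level (y axis, 0 is the array's 75th percentile) of the 4 genes before and after metformin in MalcolmX (left) and Rosco (right), 1 array per point. The open circle is not well above background. All lines go down in MalcolmX, from CAMP 0.48 to −3.73 for example, and up in Rosco, from S100A8 2.24 to 4.32.

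Genes of the same processes, taken from lists chosen with earlier results of these data known, did not all follow the members. In MalcolmX the other granule genes moved less, LTF by −0.97 and ELANE by −0.36. Of 8 surface and oxidase genes measured on both arrays 1 was at least 2-fold lower, MME, a peptidase of neutrophils and early B cells (−3.21), and 0 were higher. Of 6 attractants and cytokines 5 were at least 2-fold lower, among them IL33 (−2.17), IL1A (−1.60), PTGS2 (−1.57) and IL6 (−1.54). Among 11 proteases MMP9 and CMA1, the mast cell chymase (−2.62), were at least 2-fold lower. The macrophage elastase MMP12 went from −4.29 to −9.13 and was not well above background after the drug. Of 13 genes of the protease inhibitor list 4 were at least 2-fold lower, among them SLPI (−2.75), SERPINH1 (−2.30) and TIMP1 (−1.82). PI3, the elastase inhibitor elafin, was higher by 1.49. This list also holds SERPINH1 and SERPINF1, which belong to the serpin family but are not known to inhibit proteases. No median is given for the granule list, since 3 of its 5 measured genes are the members S100A8, CAMP and MMP9. The protease list also holds MMP9 and the inhibitor list SERPINA1. The list medians were −0.30 for surface, −1.55 for attractant, −0.33 for protease and −0.65 for inhibitor genes.

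In Rosco genes of neutrophil recruitment were among those that were higher. Of 11 surface and oxidase genes 3 were at least 2-fold higher in the remission aspirate, CXCR2 (1.85), ALOX5, the first enzyme of leukotriene synthesis (1.81), and the complement receptor C5AR1 (1.68). CXCL8, the chemokine that attracts neutrophils through CXCR2, went from −4.20 to −0.01, 18.2-fold higher. It was the 1 gene of 8 attractants and cytokines at least 2-fold higher, and IL33 was the 1 lower (−1.21). IL1B was well above background in the remission aspirate alone among the 15 arrays. IL1A went the other way, from −5.60 to −7.06, where it was not well above background. Of 10 proteases only KLK1 (1.40), and of 12 genes of the inhibitor list only SERPINA1, were at least 2-fold higher. The other granule genes LTF and ELANE were higher by 0.83 and 0.41. The list medians were 0.45 for surface, −0.17 for attractant, 0.23 for protease and 0.21 for inhibitor genes. Over the 35 list genes well above background on all 4 arrays, 14 were lower in MalcolmX and higher in Rosco, 15 lower in both, 5 higher in both and 1 higher in MalcolmX and lower in Rosco. The 14 include the members S100A8, CAMP and MMP9, and the same count was not made over all targets.

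Markers of other cells moved too. In MalcolmX the summed level of 9 named monocyte and macrophage genes was 4.10 before and 3.11 after (7 of 9 lower). That of 5 T and NK cell genes was 1.09 and −0.96 (5 of 5 lower), that of 4 mast cell genes −0.35 and −3.22 (4 of 4 lower), and that of 4 gland genes 1.07 and 0.48 (4 of 4 lower). MS4A1 was equal at 3.18 and 3.21, and the keratinocyte sum went from 1.38 to 1.17, with KRT1, KRT15 and DSG1 not well above background on either array. In Rosco the macrophage sum was 4.06 and 4.31 (7 of 9 higher) and the sum of 4 erythroid and platelet genes 2.26 and 2.71 (3 of 4 higher). The T and NK cell sum was 4.50 before and 3.92 in remission, although 3 of 5 genes were higher. The gland sum was 0.56 and 0.89, and the keratinocyte sum 2.24 and 2.20. There MS4A1 lay at 0.40 and 0.38. Their part in the differences of the members was not tested. The hepatocyte list had no named gene.

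**Figure D4:**
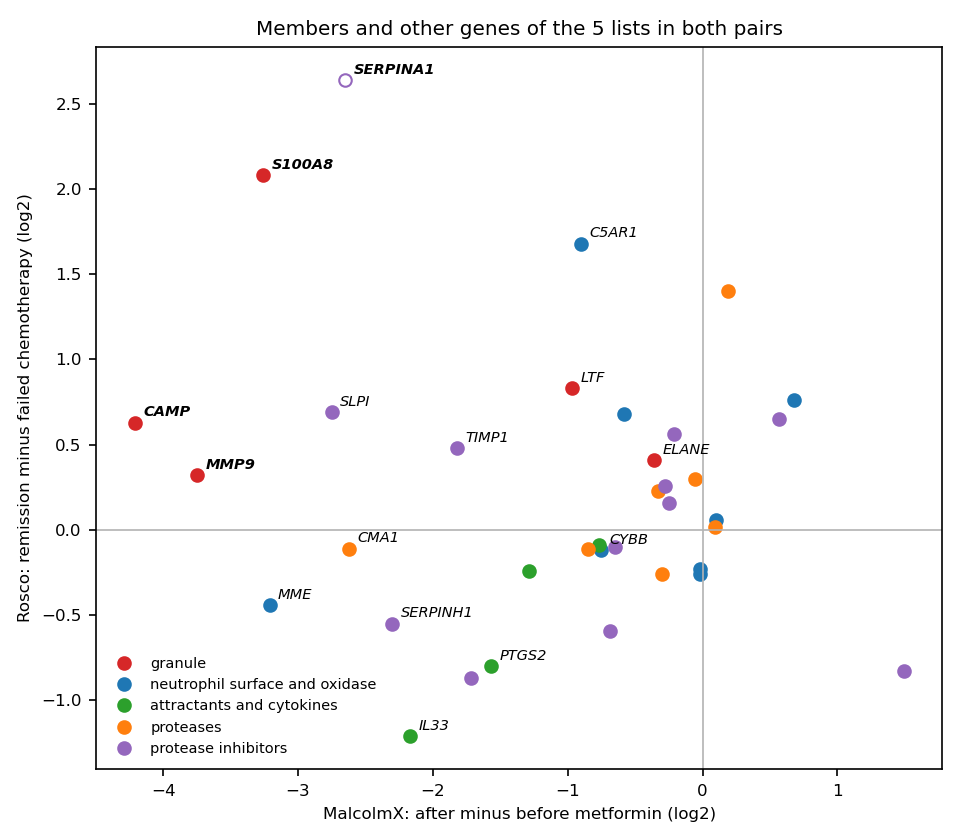
Difference in log2 level after minus before metformin in MalcolmX (x axis) against remission minus failed chemotherapy in Rosco (y axis), for 36 genes of the 5 lists, coloured by list. The open circle, SERPINA1, was not well above background on 1 of the 4 arrays. The members lie at the upper left, with CAMP lowest in MalcolmX (−4.21) and SERPINA1 highest in Rosco (2.64).

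The second question was how the aspirates at relapse differed from those Rosco gave before it. CAMP and MMP9 fell in the relapse aspirates and did not overlap with the earlier ones. CAMP was 0.74 and 1.37 before and −1.88, −0.85 and −2.82 at relapse, a fall from a mean of 1.05 (SD 0.45, n = 2) to −1.85 (SD 0.98, n = 3). The difference of −2.90 (SE 0.56), 7.47-fold lower, had an adjusted p = 0.0112 by limma. MMP9 was −0.99 and −0.68 before and −3.11, −3.38 and −3.34 at relapse, means of −0.84 (SD 0.22, n = 2) and −3.28 (SD 0.15, n = 3). The difference of −2.44 (SE 0.20), 5.43-fold lower, had an adjusted p = 0.000713 by limma. S100A8 differed by −2.55 (SE 0.99, 95% interval −4.97 to −0.12, adjusted p = 0.0996 by limma), with relapse aspirate 2 (2.30) above the failed-chemotherapy aspirate (2.24). SERPINA1 differed by −2.02 (SE 0.83, interval −4.05 to 0.01, adjusted p = 0.114 by limma), again with relapse aspirate 2 (−1.70) above the failed-chemotherapy aspirate (−1.96). Without the remission aspirate the differences were −1.51 for S100A8 and −0.70 for SERPINA1.

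Of the 4 members 2 were called lower, beside 16.3% of 25366 targets lower, 17.4% higher and 33.7% in all. The same 2 had groups apart, beside 31.4% of targets with relapse below and 28.9% with relapse above. The comparison is within 1 dog, and 2 of the 5 arrays make the earlier group. Those 2 were taken in different states, failed chemotherapy before metformin and remission on metformin. The spread used by limma therefore holds the difference between these states as well as that between repeated relapse aspirates. CAMP missed the threshold without the remission aspirate (−2.59, adjusted p = 0.0931 by limma), while MMP9 passed without any single array. The size for MMP9 was smaller with normexp background correction (−1.66) and with the mean over its 4 probes (−1.30), and it passed with both. S100A8 passed without relapse aspirate 2 (−3.33, adjusted p = 0.0331 by limma). SERPINA1 passed without the failed-chemotherapy aspirate (−3.34, adjusted p = 0.0322 by limma) and with slide as a block (−2.27, adjusted p = 0.0414 by limma). Within slide 3 and within slide 4 the differences were −2.61 and −3.20 for CAMP, −2.11 and −2.69 for MMP9, −1.53 and −3.57 for S100A8, and −1.16 and −3.11 for SERPINA1. Slide 3 held 1 array of each kind and slide 4 held 1 earlier and 2 relapse arrays.

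**Figure D5:**
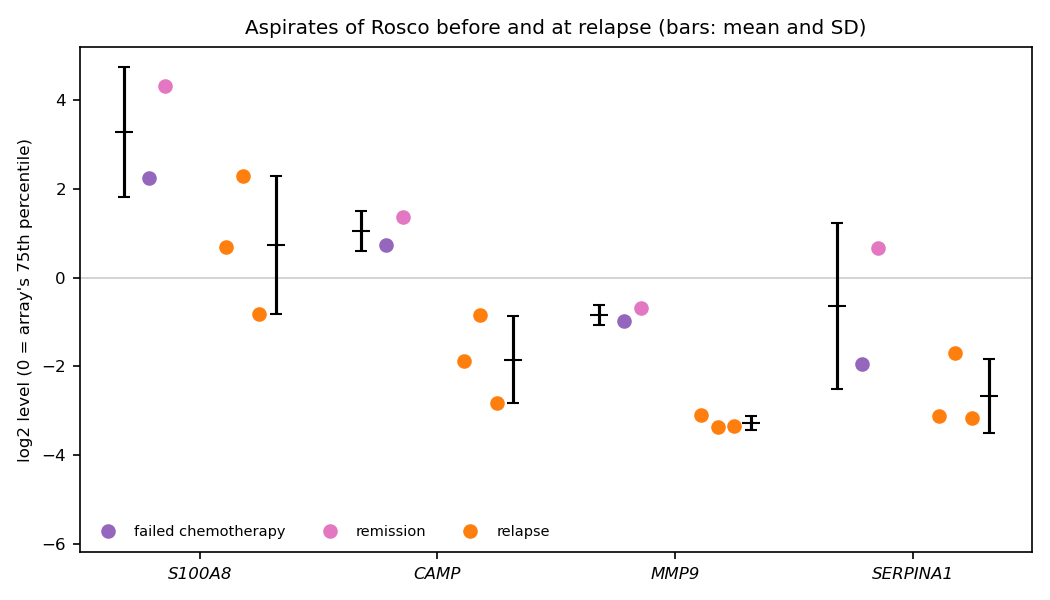
Log2 level (y axis, 0 is the array's 75th percentile) of the 4 genes in the aspirates of Rosco before relapse (failed chemotherapy and remission, n = 2) and at relapse (n = 3). Points are arrays and bars the mean and SD. CAMP and MMP9 do not overlap between the groups, while S100A8 and SERPINA1 do through relapse aspirate 2 (2.30 and −1.70).

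The related genes moved both ways. Of 5 granule genes tested, which include the members S100A8, CAMP and MMP9, CAMP and MMP9 fell and ELANE rose by 0.93 (SE 0.25, adjusted p = 0.0353 by limma). LTF differed by −0.35 (adjusted p = 0.377 by limma). Of 11 surface and oxidase genes 3 rose and 3 fell (median −0.65 against −0.08 for all targets). The oxidase subunits CYBB (2.04) and CYBA (1.75), which B cells and macrophages also make, were among those that rose. ALOX5 (−2.81) and the anti-inflammatory annexin ANXA1 (−0.83) fell. The platelet-activating factor receptor gene PTAFR was also called lower (adjusted p = 0.0389 by limma), but it was well above background on 1 of 3 relapse arrays and has no exact difference. Of 8 attractants and cytokines (median −0.21) only CCL20 was called, higher by 1.14, and CXCL8 differed by −2.25 (adjusted p = 0.176 by limma). Of 10 proteases CMA1 (−3.93) and MMP9 fell and ELANE rose, for a median of −0.29 that includes MMP9. MMP12, at −2.08 and −1.85 in the earlier aspirates, was also called lower (adjusted p = 0.000323 by limma), and was well above background on 1 of 3 relapse arrays, at −5.67. Of 12 genes of the inhibitor list 3 fell, among them SLPI (−1.89) and SERPINF1 (−1.75), and SPINT2 (0.99) rose, for a median of −0.36. Beside them the T and NK cell sum was 3.92 and 4.50 in the earlier aspirates and 0.71 to 1.68 at relapse (3 of 5 genes called lower, CD8A by −6.42). MS4A1 rose by 1.70, the mast cell sum was at least 1.02 against −1.24 to −0.13, and the macrophage sum 4.06 and 4.31 against 4.68 to 4.74. The erythroid and platelet sum was 2.26 and 2.71 against 1.35 to 1.5, with 1 gene called higher and 1 lower. The keratinocyte sum was 2.20 and 2.24 against 1.44 to 2.12, with 3 of 7 genes called lower. Their part in the fall of CAMP and MMP9 was not tested.

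The third question was whether tumour biopsies differed from skin. None of the 4 members was called between the 4 resistant biopsies and the 2 skin samples, beside 0.431% of 23921 targets called by limma (0.00836% higher and 0.422% lower). These were 103 targets, with 3536 at an unadjusted p under 0.05. With dog as a block over MalcolmX and Rosco, the dogs that gave both tissues, limma called 0 targets (2158 at an unadjusted p under 0.05), and MMP9 was −0.68 and SERPINA1 0.57. For S100A8 the mean of the biopsies was 0.20 (SD 1.70, n = 4) and that of skin 1.1 (SD 0.18, n = 2), a difference of −0.89 (SE 1.07, 95% interval −3.47 to 1.69). CAMP was higher in every biopsy than in both skin samples, by 1.64 on average (SE 1.17, interval −1.19 to 4.47, adjusted p = 0.469 by limma). It was the 1 member of 4 whose groups were apart, beside 18.1% of targets with all biopsies above skin and 10.4% with all below. MMP9 differed by 0.36 (SE 2.26, interval −5.12 to 5.84) and SERPINA1 by −0.58 (SE 2.44, interval −6.49 to 5.34). Both intervals are wide, and single biopsies lay far from the others, Jake at 2.03 for MMP9 and Rosco at 3.30 for SERPINA1. The Rosco biopsy, dim for MS4A1, moved SERPINA1 most among the biopsies. Without it the difference was −2.18 for SERPINA1 and 1.51 for MMP9. Without the Jake biopsy MMP9 was −1.16, without the MalcolmX biopsy −0.10, and without the MalcolmX skin −0.46. SERPINA1 was 0.27 without the MalcolmX biopsy, 0.38 without the Jake biopsy, −2.90 without the MalcolmX skin and 1.75 without the Rosco skin. Within slide 1 and slide 2 the differences were −1.0 and −0.33 for S100A8, 0.35 and 4.76 for CAMP, 0.73 and 0.91 for MMP9, and 2.59 and −5.43 for SERPINA1. Slide 2 held 1 array of each kind.

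Among the other genes of the lists 1 was called, SPINK5, which restrains kallikrein proteases in the epidermis and was lower by 8.12 in the biopsies (adjusted p = 0.0218 by limma). Of 14 genes of the inhibitor list tested 13 were lower in the biopsies, with a median of −1.10 against 0.25 for all targets. Among them were PI3 at −4.57 (adjusted p = 0.144 by limma) and SERPINF1 at −3.86. The medians of the surface, attractant and protease lists were 0.56, 0.27 and 0.23, with 0 genes called in each and in the granule list. The keratinocyte sum was 7.66 and 10.32 in skin against 1.24 to 4.04 in the biopsies. Its part in the levels of S100A8, which keratinocytes can make, was not tested.

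The sensitive biopsy of Thai was set against the 4 resistant ones with 1 array on its side, so its spread was borrowed from them. S100A8 was higher by 1.55 (SE 1.49), CAMP by 1.19 (SE 1.62) and SERPINA1 by 0.55 (SE 3.03), and MMP9 differed by −1.06 (SE 3.12). All 4 values lay inside the range of the resistant biopsies, beside 20.5% of targets above and 15.2% below that range, and the adjusted p was 1 for each by limma. No target of 26344 was called (0%), with 785 at an unadjusted p under 0.05. The 95% intervals ran from −2.21 to 5.32 for S100A8, −2.89 to 5.28 for CAMP, −8.94 to 6.83 for MMP9 and −7.10 to 8.20 for SERPINA1. The sign of SERPINA1 turned without the MalcolmX or the Jake biopsy (−0.29 and −0.41), and that of MMP9 without the Jake biopsy (0.46). The Thai array was on another slide and scan day than the resistant biopsies, so slide and group cannot be told apart. Of 13 genes of the inhibitor list 11 were lower in Thai (median −1.35 against 0.08 for all targets). The list medians were 0.43 for surface, 0.68 for protease and −0.04 for attractant genes.

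The post-mortem tumour sample of Rosco was set against the 3 relapse aspirates, again with 1 array on its side and no sampling method given in the labels. S100A8 at −1.44 lay below all 3 relapse aspirates (−2.17 on average, SE 1.19, 95% interval −5.29 to 0.96, adjusted p = 0.439 by limma). CAMP (−1.08, SE 0.77, adjusted p = 0.535 by limma) and SERPINA1 (−0.72, SE 0.67, adjusted p = 0.634 by limma) also lay below them. MMP9 lay above them by 0.52 (SE 0.25, interval −0.14 to 1.19, adjusted p = 0.399 by limma). Such separation is common here, since 29.3% of 27117 targets lay below all relapse aspirates and 36.8% above. No target was called (0%), with 4129 at an unadjusted p under 0.05. The inhibitor list was higher by a median of 1.56 against 0.06 for all targets, with 9 of 13 genes higher and 0 called. Among them SERPINF1, a secreted serpin that restrains blood vessel growth, was higher by 3.42, TFPI by 2.87 and TIMP1, an inhibitor of MMP9, by 2.47. The list medians were 0.24 for surface, 0.46 for attractant and −0.05 for protease genes. Within slide 3, which held the post-mortem sample and relapse aspirate 1, the differences were −2.14 for S100A8, −1.05 for CAMP, 0.35 for MMP9 and −0.26 for SERPINA1.

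Across the 15 arrays the 4 genes did not form 1 pattern. The correlations that follow are descriptions over arrays of which 9 come from 1 dog, so they carry no test. S100A8 and CAMP had r = 0.69, and 0.51 without the remission aspirate and the MalcolmX aspirate, the 2 arrays farthest from the S100A8 median. CAMP and MMP9 had r = 0.39, S100A8 and SERPINA1 0.45, S100A8 and MMP9 0.07, CAMP and SERPINA1 −0.01, and MMP9 and SERPINA1 −0.36. The named genes most like each member also differed, among 1059 genes well above background on at least 8 arrays. The 5 nearest to S100A8 were LOC609402 (r = 0.88), the red cell antigen gene RHCE (0.78), ADGRE3, an adhesion receptor of myeloid cells (0.76), and the T cell genes CTLA4 (0.76) and ICOS (0.70). Without its 2 farthest arrays these fell between 0.49 and 0.83. CAMP was most like the lymphocyte costimulation genes CD40LG (0.88), CD80 (0.86), CD28 (0.86) and ICOS (0.85), and like GFI1, a repressor needed in neutrophil and lymphocyte development (0.84). Without the remission and failed-chemotherapy aspirates, which had the highest CD8A levels, these were 0.66 to 0.75. MMP9 was most like MCL1, a survival factor of neutrophils and lymphoma cells (0.78), SLC12A4 (0.76), MYH9 (0.73), PIP5K1A (0.70) and CLIC1 (0.69). SERPINA1 was most like the epithelial genes CEACAM1 and CDH1 and like BEX4 and SLC5A1 (0.89 each) and POR (0.88). Without the Rosco biopsy and second aspirate these were 0.73 to 0.78. For comparison, the 95th percentile of r over all candidates was 0.51 for S100A8 and MMP9, 0.64 for CAMP and 0.72 for SERPINA1.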

How the data were processed

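Per the labels' protocols, RNA was checked for integrity before labelling with Cy3 for 1-colour Agilent arrays. There was 1 array per sample, on 4 slides and 2 scan days. The deposited processed intensity came from Agilent Feature Extraction 11.0.1.1, per the file headers, with background and spatial trend removed within each array and no scaling between arrays. Other deposited columns hold median intensity, local background and flags of 0 or 1. The deposited value table equals spot median minus background median intensity in 678300 of 678300 cells within 0.01, with column medians from 42 to 147.

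Outlying spots (2 to 50 per array) were left out, 0 were saturated, and 66.7% to 75.9% of probes were well above background. Values are log2 of the deposited processed intensity minus the array's 75th percentile, which ran from 367 to 1241. RefSeq identifiers named 2186 of 43603 probes (5.01%). No genome positions are given, since the gene table's assembly differs from CanFam3.1, named in the headers. Each of 36604 targets was read by its brightest probe on average. Targets well above background throughout 1 or both groups, and measured on all arrays compared, were tested, the 4 members in each comparison. limma 3.58.1 in R 4.3.3 (lmFit, eBayes, two-sided, Benjamini-Hochberg over all targets, threshold 0.05) was first tested on simulated data. Where 1 array stood alone, it was taken to vary like the group it was set against. Repeated aspirates of 1 dog share that dog, and the number of arrays limits precision. Where 1 array of a pair was not well above background, its level is printed and a fold taken from it is not a lower limit.

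The members and lists were chosen with earlier results of these data known. The rule for named genes took the members, list genes past the threshold, up to 4 list genes with the largest difference per comparison, and the 5 genes most correlated with each member; some of these are not printed, and marker genes and gland genes outside it were chosen after their values were seen. A summed level is log2 of the sum of linear signals. Alternatives were quantile scaling, normexp with offset 50 on the median signal, the deposited value table with a floor of 1, the mean over probes, no filter, slide or dog as a block, and leaving out each array.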

Additional observations from a re-analysis of the deposited data

Results flagged for a closer look

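CAMP in the MalcolmX resistant biopsy, at 0.48, stood apart from the 3 other resistant biopsies, with a gap of 0.832 of the group's range, just above Dixon's 95% critical value for 4 samples. About 1 in 20 groups of this size would pass that limit by chance.

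The 4 members moved in opposite directions in the 2 dogs sampled before and after metformin, and the difference between the dogs was not tested, since each had 1 array on either side. S100A8 differed by −3.26 in MalcolmX and 2.08 in Rosco, CAMP by −4.21 and 0.63, MMP9 by −3.75 and 0.32, and SERPINA1 by −2.65 and 2.64. In Rosco the CAMP difference was smaller than the SD of 0.98 over the relapse aspirates, and the second good MMP9 probe gave 0.20. These 2 do not show a rise. The share of all targets with opposite directions was not counted. The −2.65 rests on a signal not well above background after metformin, and the second SERPINA1 probe, above background on both arrays, differed by −0.57. The MalcolmX pair set an aspirate against a biopsy and the Rosco pair an aspirate against an aspirate.

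The second resistant aspirate of Rosco entered no comparison. Its SERPINA1 level of 3.54 was above both skin samples (−3.27 and 1.37), and so was its CAMP level of −3.09 (−3.54 and −4.28). Its S100A8 level of 0.10 was below both (0.97 and 1.22), as was MMP9 at −5.86, not well above background (−3.72 and −2.07).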

How the results depend on the processing

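Of 274 values recomputed under an alternative, 222 were counted as the same. They kept direction and side of the threshold, moved by less than the replicate SD, or were counts of targets called that changed little. Genes past the threshold in neither setting are among them, so the number does not measure how firm the calls are. Between resistant biopsies and skin the 103 calls became 8 with normexp, 55 with the deposited value table, 65 without the filter, 32 with slide as a block and 40 within slide 1. They ran from 5 to 3123 leaving out 1 array, with 3123 without the Rosco biopsy, 5 without Jake, 11 without the MalcolmX biopsy, 21 without Dog Y, 326 without the MalcolmX skin and 319 without the Rosco skin. With dog as a replicate block on MalcolmX and Rosco alone limma called 0 (2158 at an unadjusted p under 0.05), and MMP9 turned to −0.68 and SERPINA1 to 0.57. With dog as a random replicate block it called 150. Dog could not pair the samples of the other comparisons. The relapse and post-mortem comparisons lie within Rosco, and Thai gave no resistant biopsy. SERPINA1 was 0.05 with normexp, 2.59 within slide 1 and −5.43 within slide 2, and CAMP 4.76 within slide 2. Leaving out 1 array gave −1.16 to 1.51 for MMP9 and −2.90 to 1.75 for SERPINA1. For the sensitive biopsy SERPINA1 turned to −0.12 with normexp and −0.02 with slide as a random block. Leaving out 1 array gave −0.41 to 2.16 for SERPINA1 and −2.20 to 0.46 for MMP9.

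At relapse, S100A8 (−2.43) and SERPINA1 (−1.50) passed with normexp, SERPINA1 also with slide as a block (−2.27) and within slide 4 (−3.11). Within slide 4 CAMP (−3.20) missed and 2497 targets were called, and MMP9 was −2.11 within slide 3, −1.66 with normexp and −1.30 with the mean over probes. Leaving out 1 array gave 3769 to 9758 calls (3769 without the remission aspirate, 5534 without failed chemotherapy, 5640 without relapse aspirate 1), −3.59 to −1.51 for S100A8, −3.40 to −2.42 for CAMP and −3.34 to −0.70 for SERPINA1. For the post-mortem sample 390 targets were called with normexp, 14 with the mean over probes and 0 to 431 leaving out 1 array (107 without relapse aspirate 1, 431 without relapse aspirate 3), and MMP9 was 0.35 within slide 3. In MalcolmX MMP9 was −3.59 with quantile scaling, −2.83 with normexp and −2.55 with the mean over probes, CAMP −3.21 with normexp, and SERPINA1 −1.61 with the mean over probes. All 4 members kept their sign in both metformin pairs under the 4 alternatives run there. The causes were not tested. Signal over background limits MMP9 on 2 arrays and SERPINA1 on 1.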
